A study of Mus musculus with 2 samples.

Results

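Foxa1, Foxa2, Ferd3l, Spon1, Corin, Nkx2-2 and Nkx2-9 are genes of the floor plate and the ventral progenitor zone of the neural tube. They were taken by gene name from the M21 annotation and are 7 of its 55536 genes; the rule uses names and no measured value, but the genes were proposed with earlier results of these data known. Polyadenylated RNA came from whole midbrain of B6NCrl mouse embryos at 12.5 days of gestation, with males and females pooled, and all embryos were of the same strain, age and health state, with no treatment or allele named in the labels. Replicate 1 pooled 120 embryos, and replicate 2 pooled 88. Each library started from 10 ng of RNA, was primed with oligo-dT, was fragmented by a transposase (tagmentation) and carried ERCC RNAs as spike-ins. The pools are biological replicates of 1 group, so there was no contrast of conditions, and each pool is 1 library. Differences between the libraries are therefore given with a counting interval and without a p-value.

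The floor plate is the strip of neuroepithelium at the ventral midline. It is induced by Sonic hedgehog (Shh) from the underlying notochord, then makes Shh itself and guides axons across the midline through secreted proteins such as netrins, Slits and spondins. In the midbrain, unlike the spinal cord, floor plate cells also divide and give rise to dopamine neurons, and the forkhead factors Foxa1 and Foxa2 act in that lineage. Nkx2-2 and Nkx2-9 are homeodomain factors induced by Shh in progenitors beside the floor plate, so they mark a neighbouring ventral domain more than the midline itself.

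The genes include 2 pairs of paralogs, Foxa1 with Foxa2 and Nkx2-2 with Nkx2-9, and a short read could be divided between genes only where their transcripts are identical. No 50-base window of the main transcripts of Foxa1, Foxa2, Ferd3l or Spon1 occurred in a transcript of any other gene. Shared windows made up 11.2% of Nkx2-2 (all with its antisense gene Nkx2-2os), 1.39% of Corin (with the antisense gene Gm20647) and 0.988% of Nkx2-9.

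All 7 genes were measured at 1 TPM or more in both libraries (TPM is a level corrected for transcript length, with the sum over all transcripts fixed), against a background of 59.4% of the 22028 protein-coding genes. Spon1 was the highest of them, at 24.21 TPM in replicate 1 and 45.04 TPM in replicate 2. Its level stood above that of 78.0% of protein-coding genes over both libraries, and Nkx2-9, the lowest, stood above 40.8%. Summed over the 7 genes, the level was 48.25 TPM in replicate 1 and 78.05 TPM in replicate 2, of which Spon1 took 50.2% in replicate 1 and 57.7% in replicate 2.

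The labelled tissue was checked against its markers. Each of 7 midbrain markers, including Otx2 (145 and 141 TPM in replicates 1 and 2), was detected, while none of 5 Hox genes of hindbrain and spinal cord reached 1 TPM and 3 of the 5, Hoxa4, Hoxb4 and Hoxc6, had no counts. Hindbrain cells that express none of these 5 Hox genes would not be seen by this check, so it does not exclude hindbrain tissue. All 12 other floor plate genes were detected. Foxa2 also marks endoderm and notochord, so markers of both were examined. Of 10 endoderm and liver markers, 2 were detected in both libraries and Alb, Cdx2 and Pdx1 had no counts, with a summed level of 24.8 TPM in replicate 1 and 9.10 TPM in replicate 2. Afp had 420 counts in replicate 1 and 4 in replicate 2, and Apoa1 had 89 and 23. The notochord gene T (brachyury) had 8 and 23 counts, a log2 ratio of replicate 1 over replicate 2 of -1.16 (95% counting interval -2.53 to 0.05), and Noto had none. The part of endoderm or notochord in the Foxa2 values was not tested.

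Foxa2, a forkhead factor needed to form the floor plate, is at chr2:148042877-148046969 on the minus strand (ENSMUSG00000037025.11; all coordinates are mm10). It had 183 counts in replicate 1 and 486 in replicate 2, or 5.09 and 10.98 TPM (mean 8.04 ± 4.16, SD, n = 2). Replicate 2 was the high library. Foxa1, its paralog, is at chr12:57540628-57546916 on the minus strand (ENSMUSG00000035451.7). Foxa1 had 184 and 218 counts, or 3.19 TPM in replicate 1 and 2.99 TPM in replicate 2 (mean 3.09 ± 0.14, SD, n = 2), the smallest spread of the 7 genes. In replicate 1 both forkhead genes thus had nearly the same number of reads, and in replicate 2 they did not. The third Foxa gene, Foxa3, had 3 counts in each library.

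Ferd3l, a single-exon gene for a bHLH repressor of the ventral midline, is at chr12:33928425-33929310 on the plus strand (ENSMUSG00000046518.3). It had 16 counts in replicate 1 and 63 in replicate 2, or 1.09 and 3.40 TPM (mean 2.25 ± 1.63, SD, n = 2). The count of 16 makes it the least well measured value among the 7 genes.

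Spon1 encodes F-spondin, a secreted matrix protein of the floor plate, and spans 277 kb at chr7:113765998-114043370 on the plus strand (ENSMUSG00000038156.16). It had 2710 counts in replicate 1 and 6384 in replicate 2, and its mean level was 34.6 ± 14.7 TPM (SD, n = 2). Corin encodes a membrane serine protease used as a surface marker of floor plate cells and spans 204 kb at chr5:72300025-72504473 on the minus strand (ENSMUSG00000005220.10). Corin had 207 and 789 counts, or 2.41 TPM in replicate 1 and 7.28 TPM in replicate 2 (mean 4.85 ± 3.44, SD, n = 2). For both midline proteins replicate 2 was the high library.

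Nkx2-2 is at chr2:147177546-147194243 on the minus strand (ENSMUSG00000027434.11). It had 304 counts in replicate 1 and 269 in replicate 2, or 10.88 and 7.27 TPM (mean 9.08 ± 2.55, SD, n = 2), so here replicate 1 was the high library. Nkx2-9 is at chr12:56611389-56613284 on the minus strand (ENSMUSG00000058669.7). It had 30 counts in each library, or 1.38 TPM in replicate 1 and 1.09 TPM in replicate 2 (mean 1.24 ± 0.21, SD, n = 2).

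**Figure D1:**
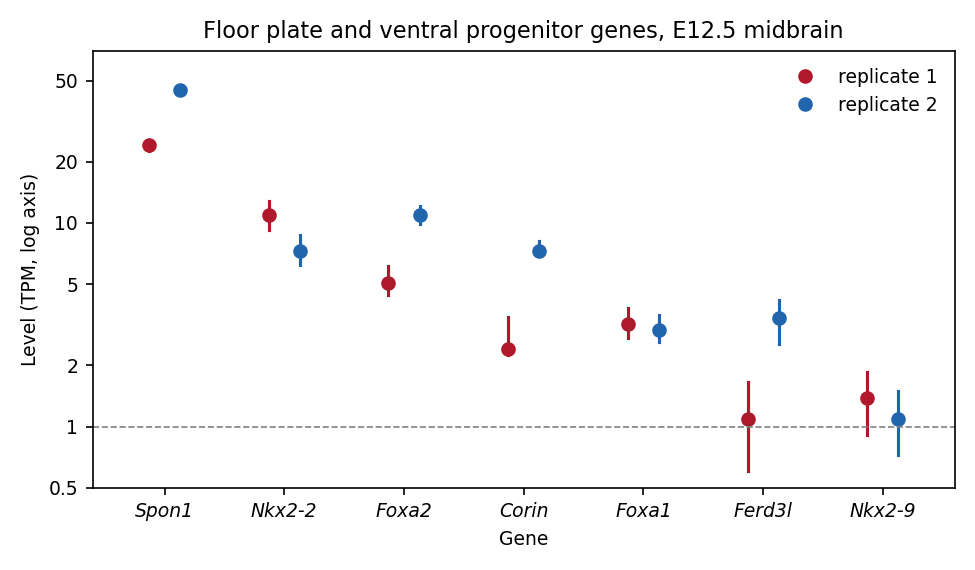
Level of each gene in TPM (log axis) in replicate 1 (red, left) and replicate 2 (blue, right); points are the deposited TPM values and lines the authors' deposited 95% bounds, and the dashed line marks 1 TPM. Spon1 stands above all others in both libraries; the replicate 2 point of Spon1, 45.04 TPM, lies just above its own bounds of 42.7 to 44.8 TPM, which were computed around another estimate.

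By mean level the order was Spon1, Nkx2-2, Foxa2, Corin, Foxa1, Ferd3l and Nkx2-9. Only the first step held in both libraries beyond the spread: Spon1 was above Nkx2-2 in each, whereas the ranges of every other pair of neighbours in that order overlapped, although Foxa2 was above Corin in each library. In replicate 1, Nkx2-2 came next after Spon1 and Ferd3l was last. In replicate 2, Foxa2 and then Corin followed Spon1, and Nkx2-9 was last. From highest to lowest the 7 genes spanned 22.2-fold in replicate 1 and 41.3-fold in replicate 2.

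Between the libraries, 3 of the 7 genes were lower in replicate 1 by at least 2-fold with an interval excluding equality, namely Foxa2, Corin and Ferd3l. Over all 19885 genes that reached 10 counts in either library, 2.45% met that limit in that direction. The log2 ratio of scaled counts, replicate 1 over replicate 2, was -1.05 for Foxa2 (95% interval -1.30 to -0.80), -1.57 for Corin (-1.79 to -1.34) and -1.61 for Ferd3l (-2.51 to -0.80). Spon1 was also lower in replicate 1, at -0.87 (-0.94 to -0.81), short of the 2-fold limit. Thus 4 of 7 were below equality beyond counting error, against a background of 16.7%. These are exact conditional binomial (Clopper-Pearson) intervals after TMM scaling. They cover counting error only, with each read taken as a separate molecule, and they hold no spread between pools. PCR copies could not be told from separate molecules, so the intervals may be too narrow even for counting error.

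Nkx2-2 was the gene above equality, at 0.54 (0.30 to 0.78), where 15.5% of all genes were higher in replicate 1 beyond counting error. No member was higher by the 2-fold limit, which 1.78% of all genes passed. Foxa1, at 0.12 (-0.17 to 0.41), and Nkx2-9, at 0.36 (-0.42 to 1.14), were within counting error of equality, and the sign of the Foxa1 value turned to -0.15 when the spike-ins set the scale. The median over the 7 genes was -0.87, beside -0.01 over all genes compared, whose central 95% ran from -1.14 to 0.95. Among the 15158 genes that reached 50 counts in either library, the central 95% was narrower, from -0.66 to 0.47, and Foxa1 lay inside it, whereas Spon1, Foxa2, Corin, Ferd3l and Nkx2-2 lay outside. Scaling by the spike-ins moved the median of all genes to -0.28. The share of 2-fold calls that were higher in replicate 1 went to 19.9%, from 42.1% with TMM. Over all genes compared, 873 were then lower in replicate 1 by the 2-fold limit, against 487 with TMM. With that scaling 4 members passed the limit, all lower in replicate 1, and Nkx2-2 was still above equality. The added member thus came with a rise over all genes. In bulk tissue, fewer cells of a type and less RNA per cell cannot be told apart, nor can the pool, its dissection and its library.

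**Figure D2:**
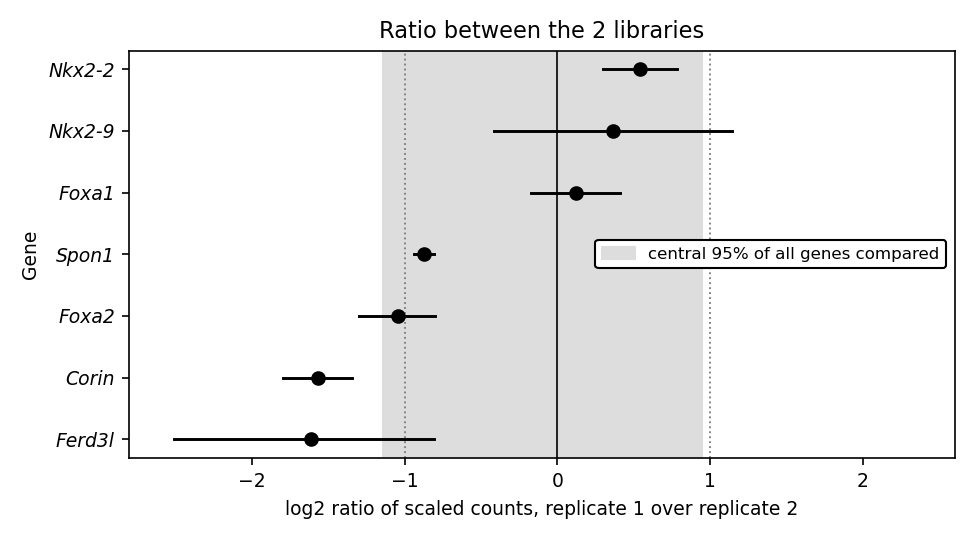
Log2 ratio of scaled counts, replicate 1 over replicate 2, for each gene (points) with its 95% counting interval (lines); the grey band is the central 95% of all genes compared, from -1.14 to 0.95, and dotted lines mark 2-fold. Corin and Ferd3l lie left of the band, while Nkx2-2, Nkx2-9 and Foxa1 lie right of 0.

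A ratio of 2 genes within a library does not depend on how the libraries are scaled. The log2 differences of such ratios given here come from counts, with exact intervals, and can differ from those of the TPM ratios beside them. Of the 21 pairs among the 7 genes, 15 had a ratio that differed between the libraries beyond counting error. The pairs rest on the same counts of 7 genes as the ratios above, so they are not separate results. No share over pairs of other genes was computed, so the count of 15 has no background beside it. Foxa1 was 0.63 times the TPM of Foxa2 in replicate 1 and 0.27 times in replicate 2, and the log2 difference from counts was 1.16 (0.78 to 1.55). Foxa2 was 0.47 times the TPM of Nkx2-2 in replicate 1 and 1.51 times in replicate 2, and the log2 difference from counts was -1.59 (-1.94 to -1.23), so the order of the midline factor and the neighbouring-domain factor was opposite in the 2 pools. Corin over Nkx2-2 gave -2.11 (-2.44 to -1.77) and Spon1 over Nkx2-2 gave -1.41 (-1.66 to -1.16).

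Beyond counting error, the genes that were low in replicate 1 were not low by one common factor. These intervals hold no spread between pools. Over all genes that reached 50 counts in either library, the SD of the log2 ratio was 0.29. Foxa2 over Corin differed by 0.52 (0.18 to 0.86) and Spon1 over Corin by 0.69 (0.46 to 0.93) on the log2 scale, so Corin was the lower of each pair. For Foxa2 over Spon1 the difference was -0.17 (-0.43 to 0.08) and for Ferd3l over Corin -0.05 (-0.97 to 0.80), both within counting error, the second with a wide interval. Nkx2-2 over Nkx2-9 gave 0.18 (-0.64 to 1.00), and Foxa1 over Nkx2-2 gave -0.42 (-0.80 to -0.04).

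The coding transcripts Foxa2-201 and Foxa2-202 begin 1021 bases apart and end at the same base. The RefSeq promoter table (GRCm38.p6) matched 6 of the 7 genes and holds a promoter for each of these starts; they are shown because the estimated share of the upstream form differed between libraries. Each gives the 250 bases before the start in lower case and the first 30 transcribed bases in capitals, on the minus strand.
Foxa2-201, chr2:148046940-148047219: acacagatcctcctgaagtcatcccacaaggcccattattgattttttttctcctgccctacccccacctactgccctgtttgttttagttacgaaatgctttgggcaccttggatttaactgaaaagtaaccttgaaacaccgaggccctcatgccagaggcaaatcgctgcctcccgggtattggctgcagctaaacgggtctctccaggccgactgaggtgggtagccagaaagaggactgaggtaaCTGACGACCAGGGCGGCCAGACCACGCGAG
Foxa2-202, chr2:148045919-148046198: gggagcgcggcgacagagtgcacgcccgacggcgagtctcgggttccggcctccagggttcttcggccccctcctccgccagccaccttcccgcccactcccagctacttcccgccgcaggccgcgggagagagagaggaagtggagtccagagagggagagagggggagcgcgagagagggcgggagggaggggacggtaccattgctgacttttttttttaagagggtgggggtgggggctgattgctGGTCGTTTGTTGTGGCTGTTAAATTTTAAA
Foxa2-202, from the downstream start, took 96.6% of the TPM of Foxa2 in replicate 1 and 79.9% in replicate 2. Foxa2-201, from the upstream start, was estimated at 0 counts in replicate 1 and 65.0 in replicate 2, or 0 and 1.36 TPM. That difference was not beyond the error of the estimate: the posterior mean count was 19.2 ± 18.0 (posterior SD) in replicate 1 and 85.3 ± 39.7 in replicate 2, and the deposited 95% bounds of the TPM overlapped, with an upper bound of 1.42 in replicate 1 and a lower bound of 0.47 in replicate 2. Only 108 of the 2079 windows of 50 bases in Foxa2-201 were absent from Foxa2-202. The noncoding Foxa2-203, from a start farther downstream, took 3.39% and 7.76%.

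The counts of Corin were divided between 2 coding transcripts. Corin-202 took 69.9% of the TPM of Corin in replicate 1 and 74.3% in replicate 2, and Corin-201 took 30.1% and 25.7%. The other 5 annotated transcripts had no expected counts. The posterior estimate spreads some reads over the other forms. By it, Corin-202 took 50.6% of the TPM in replicate 1 and 67.9% in replicate 2. The posterior count of Corin-202 was 124 ± 29.2 (posterior SD) in replicate 1 and 560 ± 57.3 in replicate 2. Its share was thus less certain than the first estimate shows. Spon1-201, the full 16-exon form, took 93.1% and 94.8% of the TPM of Spon1. Spon1-202, which has 6 exons and ends within the gene, took 6.92% and 5.19%. Foxa1-201, Ferd3l-201 and Nkx2-9-201 carried all the counts of their genes. With the older M4 annotation the counts of 6 of the 7 genes were the same within 0.05 counts, and those of Spon1 were 2654 in replicate 1 and 6300 in replicate 2.

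Nkx2-2-201, the main coding form of Nkx2-2, took 68.8% of the TPM in replicate 1 and 71.3% in replicate 2. Noncoding transcripts that begin upstream, Nkx2-2-202 and Nkx2-2-204, together took 27.8% and 20.7% of the TPM, but only 15 and 9 counts, or 4.94% and 3.35% of the counts of the gene. They are 340 and 378 bases long, and TPM divides reads by length. The TPM of Nkx2-2 therefore includes noncoding RNA: its coding forms alone came to 7.86 TPM in replicate 1 and 5.76 TPM in replicate 2. The antisense gene Nkx2-2os overlaps Nkx2-2 over 10161 bases and had 1.05 and 3.13 counts; the strand setting of the counting is not given in the sources used here, so reads from the sequence that this pair shares cannot be told apart.

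**Figure D3:**
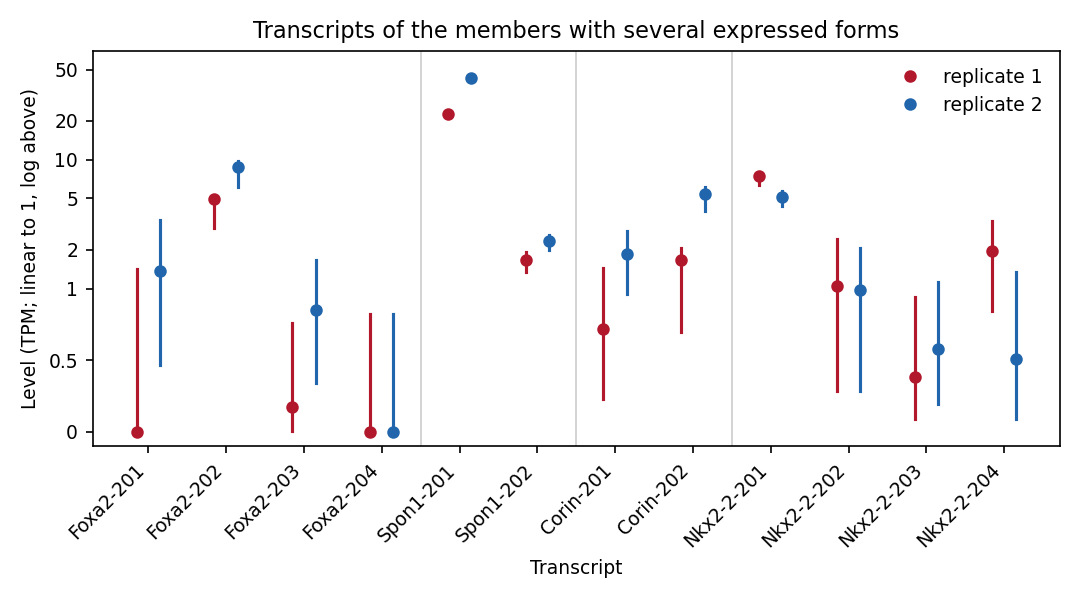
Level of single transcripts of Foxa2, Spon1, Corin and Nkx2-2 in TPM (linear up to 1, log above) in replicate 1 (red, left) and replicate 2 (blue, right), with the authors' deposited 95% bounds as lines. The bounds of Foxa2-201 overlap between libraries although its point is at 0 in replicate 1 and 1.36 TPM in replicate 2.

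Around the members, 49 annotated genes lay within 100 kb and 19 of them had counts enough to compare. The noncoding 9030622O22Rik, 2673 bases from Foxa2 on the same strand, had 23 counts in replicate 1 and 75 in replicate 2, a log2 ratio of -1.34 (-2.08 to -0.65), and its ratio to Foxa2 was within counting error (0.30, -0.45 to 1.08). Ttc6, 17196 bases from Foxa1 on the other strand, had 88 and 201 counts, at -0.83 (-1.21 to -0.46). Foxa1 over Ttc6 differed between the libraries by 0.95 (0.47 to 1.43), so Foxa1 did not share the difference of its neighbour, and Mipol1, on its other side, was at 0.00 (-0.28 to 0.27). The antisense RNA Gm16246, with 10 and 28 counts, was at -1.12 (-2.33 to -0.04).

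Ferd3l has a noncoding partner, Gm40383, which is read on the opposite strand and begins within the first 32 bases of Ferd3l. Since both genes are annotated across this start region, the 250 bases before the start of Ferd3l are shown on the plus strand, with the word TATAAA, 50 bases before the start, in capitals.
Ferd3l, chr12:33928175-33928424: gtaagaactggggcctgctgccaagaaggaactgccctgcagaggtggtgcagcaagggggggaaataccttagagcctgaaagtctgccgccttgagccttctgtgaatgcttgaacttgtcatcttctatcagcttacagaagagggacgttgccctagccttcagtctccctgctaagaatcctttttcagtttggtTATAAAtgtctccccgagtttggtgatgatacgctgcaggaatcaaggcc
Gm40383 had 15 counts in each library, at 0.36 and within counting error of equality, while Ferd3l had 16 and 63. Ferd3l over Gm40383 differed between libraries by -1.98 (-3.41 to -0.53) on the log2 scale. Ferd3l over its other neighbour, the mesenchymal bHLH gene Twist1, differed by -1.45 (-2.37 to -0.59).

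Spon1 and Corin also stood apart from the genes beside them. Rras2, 3411 bases from the end of Spon1, was at 0.24 (0.09 to 0.39), and Spon1 over Rras2 differed by -1.11 (-1.28 to -0.95). Nfxl1, 8827 bases from Corin, was at 0.04 (-0.08 to 0.16), and Corin over Nfxl1 differed by -1.61 (-1.86 to -1.35). Atp10d, Zar1, Gm5868 and Gm43815, also near Corin, were within counting error of equality. The 5 genes that overlap Corin (Gm25768, Gm20647, Gm19560, Gm23712 and AU023070) had no counts.

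Foxa2 and Nkx2-2 lie 849 kb apart on chromosome 2 and Foxa1 and Nkx2-9 lie 927 kb apart on chromosome 12, with Pax1 between the first pair and Pax9 between the second. Within the chromosome 2 pair the genes differed between libraries in opposite directions, as given above. In the chromosome 12 pair Foxa1 over Nkx2-9 was within counting error (-0.24, -1.08 to 0.59). Nkx2-1, a gene of the hypothalamus 74480 bases from Nkx2-9, had 293 and 218 counts and was at 0.79 (0.53 to 1.05). Pax9, Slc25a21, Sfta3-ps and Gm38103 near Nkx2-9, and Nkx2-4 and Xrn2 near Nkx2-2, were within counting error of equality, and the noncoding 6430503K07Rik, which overlaps Nkx2-2, had 6 and 8 counts.

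**Figure D4:**
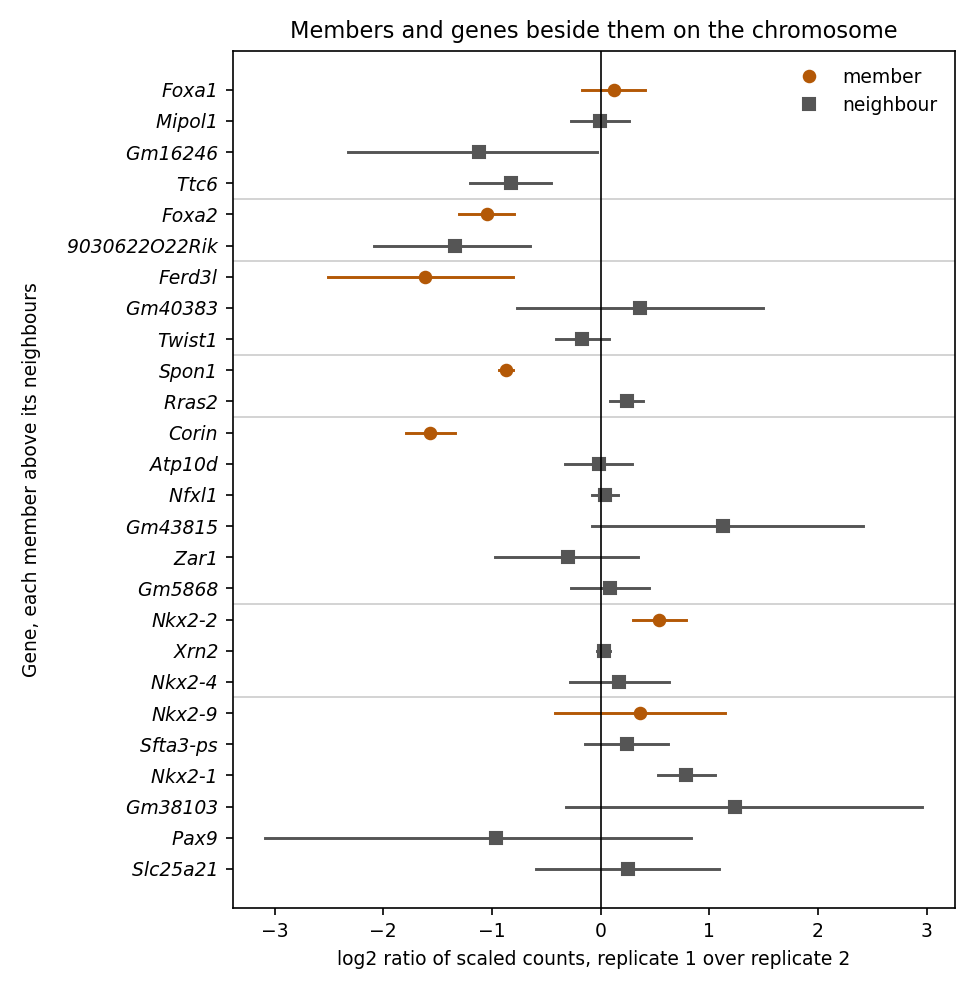
Log2 ratio of scaled counts, replicate 1 over replicate 2, with 95% counting intervals for each member (orange circles) and the 19 compared genes within 100 kb of one (grey squares, each under its member). Foxa2 and 9030622O22Rik lie on the same side of 0, whereas Ferd3l, Spon1 and Corin lie left of neighbours that sit near 0 or right of it, and Foxa1 lies right of Ttc6.

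The 8 promoters in the table, each running from 250 bases before to 50 after a start, were searched on both strands. None held the Gli word GACCACCCA, which 0.253% of 32851 promoters of that length hold. A forkhead word (TGTTTAC or TGTTTGC, in 8.48% of all) was found in Foxa1, 141 bases before the start. An Nkx2 word (TNAAGTG, in 11.5% of all) was found in Nkx2-2, 197 bases before the start, where it overlaps an E-box (CANNTG, in 72.3% of all). TATAAA, in 13.6% of all, was found in Ferd3l and, on the strand opposite to transcription, in the Foxa2-203 promoter. The count of CG dinucleotides ran from 5 in Corin and 6 in Ferd3l to 23 at Foxa2-202 and 26 in Foxa1, beside a median of 7 over all promoters. These are matches of letters only.

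Shh signals through the Hedgehog pathway, and its 11 listed genes were all detected. Of these, 4 were higher in replicate 1 beyond counting error, 1 was lower and 6 were within it, with a median of 0.06 that turned to -0.21 with spike-in scaling (6 lower, 1 higher). Shh itself, the floor plate ligand, had 177 counts in replicate 1 and 259 in replicate 2, or 3.45 and 4.00 TPM, at -0.19 (-0.47 to 0.10). Foxa2 over Shh differed between libraries by -0.86 (-1.24 to -0.48), so Foxa2 was low in replicate 1 also when set against Shh. Ptch1, the Shh receptor and a target of the pathway, was at 0.48 (0.39 to 0.56), Hhip, an inhibitor that binds Shh, at 0.52 (0.26 to 0.79), and the co-receptor Boc at -0.38 (-0.44 to -0.32).

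Of 12 other floor plate genes, 10 were lower in replicate 1 beyond counting error, 1 was higher and 1, Shh, was within it, and the median was -0.32. None passed the 2-fold limit, so all 3 members that did had larger ratios than any of these 12. Sulf1, a heparan sulfate sulfatase, had 33.3 TPM in replicate 1 and 67.3 TPM in replicate 2, at -0.87 (-0.94 to -0.81). The guidance genes Ntn1 and Slit3 were both at -0.54, the second sulfatase Sulf2 at -0.50 and the dopamine-lineage factor Lmx1b at -0.38. Dopamine neuron markers, genes of the descendants of these cells, were lower in 5 of 6 cases with a median of -0.44. Th was at -0.82 (-0.99 to -0.65) and Slc6a3, with 9 and 44 counts, at -1.93 (-3.15 to -0.87). Pitx3, the exception, was within counting error at 0.03 (-0.45 to 0.50). Among the 5, Lmx1b is also in the other floor plate list and En1 in that of midbrain markers.

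Genes of other ventral progenitor domains were mixed. Of 10, 4 were lower in replicate 1, 4 were higher and 2 were within counting error, with a median of 0.14 that turned to -0.13 with spike-in scaling (4 lower, 3 higher). Dbx2 was at 1.26 (0.58 to 1.96), Olig2, which in the spinal cord marks the progenitor domain dorsal to that of Nkx2-2, at 0.92 (0.69 to 1.15) and Nkx2-1 at 0.79. Nkx6-2 was at -0.71 (-0.89 to -0.53), Nkx6-1 at -0.39 and Helt, a GABA-neuron selector, at -0.39. Nkx2-2 and Nkx2-9 thus lay within the range of this list, from -0.71 to 1.26. Of 5 serotonin neuron markers 2 were detected, Gata2 and Gata3, whereas Tph2, Fev and Slc6a4 stayed below 1 TPM in both libraries. Only Gata3, which the midbrain marker list also holds, was higher in replicate 1. The other 4 were within counting error, and the median was -0.10. With spike-in scaling 3 of these markers were lower and 0 higher.

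Of 11 paralogs of the 7 genes, 5 were detected, and their median level was 0.74 TPM in replicate 1 and 1.55 TPM in replicate 2 over all 11. The lowest ratios were those of Ptf1a, a bHLH gene, with 9 and 46 counts at -1.99 (-3.21 to -0.94), and Nkx2-3, with 28 and 92 counts at -1.35 (-2.02 to -0.73). Nkx2-6 had no counts. Of 8 compared, 3 were lower in replicate 1, 1 was higher and 4 were within counting error, with a median of -0.32. Nppa, the natriuretic peptide precursor that Corin cleaves in the heart, had 11.2 and 39.5 counts, at -1.46 (-2.58 to -0.47). App, which F-spondin binds, was at 0.02, and the lipoprotein receptors Lrp8 and Vldlr, also bound by F-spondin, were at 0.23 and 0.20; the median of these 4 compared genes was 0.11 and turned to -0.16 with spike-in scaling, where 2 were lower and 0 higher.

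**Figure D5:**
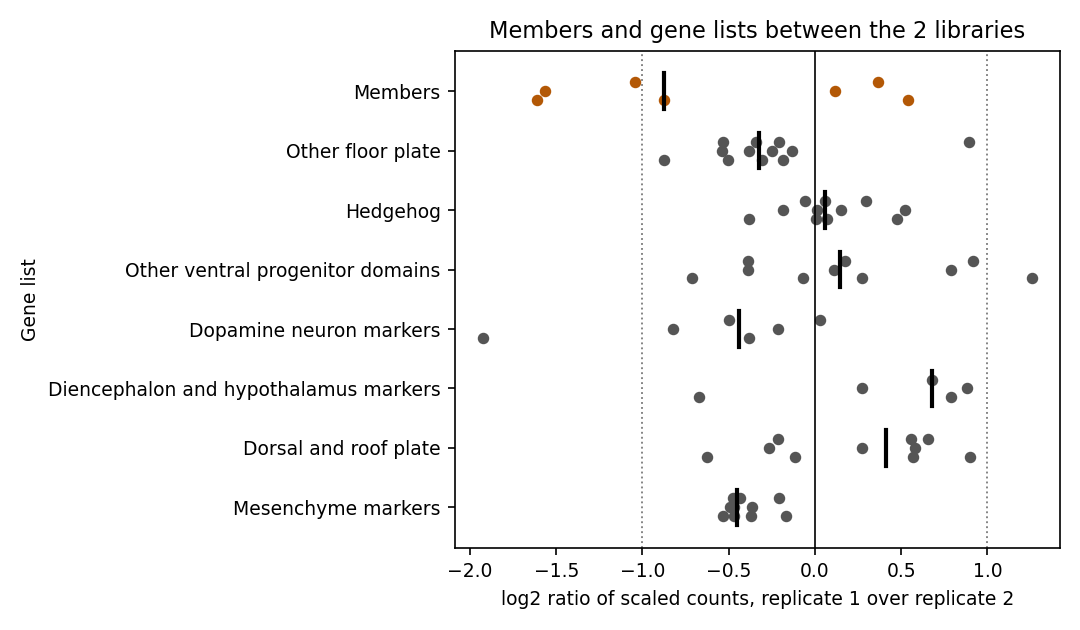
Log2 ratio of scaled counts, replicate 1 over replicate 2, for the 7 members (orange) and the compared genes of 7 lists (grey), 1 point per gene with the vertical offset only separating points; bars are medians and dotted lines mark 2-fold. The median is -0.87 for the members and -0.32 for the other floor plate genes, and 0.68 for diencephalon and hypothalamus markers.

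Markers of surrounding tissue also differed between the pools. Diencephalon and hypothalamus markers summed to 446 TPM in replicate 1 and 286 TPM in replicate 2, of which Tcf7l2 alone made 421 and 269 TPM. Of 5 compared genes 4 were higher in replicate 1 (median 0.68), among them Nkx2-1 and Sim1, which the list of other ventral progenitor domains also holds; Tcf7l2 was at 0.68 (0.65 to 0.71), Barhl2 at 0.88 and Rax, the exception, at -0.67. Mesenchyme markers summed to 1027 TPM in replicate 1 and 1456 TPM in replicate 2, and 9 of 10 were lower in replicate 1 (median -0.45). Of 7 midbrain markers 5 were lower in replicate 1 and 2 were higher (median -0.37), with Cnpy1 at -0.60 and En1 at -0.50, and with spike-in scaling all 7 were lower. Of 10 dorsal and roof plate genes, 4 were lower and 4 higher (median 0.41). The members lower in replicate 1 thus differed in the same direction as the mesenchyme and midbrain markers, and Nkx2-2 in that of the diencephalon markers; the part of tissue composition in these ratios was not tested.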

How the data were processed

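Gene and transcript tables of 2 libraries were used. Per the file headers, the authors deposited, for each gene or transcript, an expected count (an estimated read number, not scaled), a TPM value scaled over all rows including spike-ins, each transcript's share of its gene in percent, and posterior counts with TPM bounds. Assembly mm10 and annotations M21 (main) and M4 are per the labels and tables deposited with them; the aligner, quantification tool and strand setting are not given in the sources used here. Replicate 1 held 30274342 expected counts and replicate 2 held 38421860. Rows without a gene, mostly spike-ins, held 4.02% of replicate 1 and 3.38% of replicate 2 and were left out of scaling and ratios.

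Counts were rounded and scaled by TMM (edgeR 4.0.16, R 4.3.3), with DESeq2 1.42.0 size factors, ERCC totals and total gene counts as alternatives. Intervals were computed with scipy 1.17.1, for genes reaching 10 counts in either library; a call needed a 2-fold ratio and an interval excluding equality. Pair comparisons used the conditional odds ratio of the 4 counts with its exact 95% interval. The procedure was tested on simulated data. Detection meant 1 TPM in both libraries.

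The text names all 7 members, neighbours within 100 kb with at least 10 counts in a library or overlapping a member, and up to 6 genes per list with the largest ratios, with others chosen after their values were seen. The members and the 14 lists were chosen with earlier results of these data known. Posterior SDs are the authors'. No gene was ranked by likeness, since 2 libraries give a single ratio. 1 gene of the floor plate list is not reported here by name.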

Additional observations from a re-analysis of the deposited data

How the results depend on the processing

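The counts of members below (4) and above equality (1) were the same under median-of-ratios, spike-in and total-count scaling, with M4, at 50 counts and with no filter. Of 28 member ratios recomputed, 27 kept their direction and side of equality. That of Foxa1 turned to -0.15 with spike-in scaling. Most of the 28 could hardly change. The log2 ratio of the scale factors, replicate 1 over replicate 2, was -0.363 with TMM and -0.366 with median of ratios. It was -0.353 with total counts and -0.364 with TMM on M4. Only spike-in scaling, at -0.094, differed much. The limits on counts left the ratio of each member kept unchanged. The members' median of -0.87 became -1.14 with spike-in scaling and -0.96 at 50 counts, where Nkx2-9 drops out. Over all genes 841 passed the 2-fold limit, 208 at 50 counts, 1090 with spike-in scaling and 1429 at a 1.5-fold limit. Members passing were 3, and 4 with spike-in scaling or at 1.5-fold. At 2 TPM 5 members were detected. With either library alone 7 were, which follows from their detection in both. Lists were recomputed under the other scalings after seeing the data: with spike-in scaling the medians of the Hedgehog list (-0.21), the other ventral progenitor domains (-0.13) and the substrates and binding partners (-0.16) turned sign; medians of the others kept theirs. The cause of the shift with spike-in scaling was not tested.

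No paired analysis was possible because both libraries belong to 1 group. Depth limits Ferd3l and Nkx2-9 most, whose intervals span over 1.5 log2 units. With 2 pools no spread between pools enters any interval. Leaving out a library leaves no ratio.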
